A study of Rattus norvegicus with 4 samples.

Results

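The genes described here encode molecular chaperones. They are the protein-coding rows of the count table whose symbols mark the Hsp70 (Hspa), Hsp110 (Hsph), Hsp90, small heat shock (Hspb), Hsp60 and Hsp10 (Hspd, Hspe) and Hsp40 (Dnaja, Dnajb, Dnajc) families, or subunits of the cytosolic chaperonin (Cct and Tcp1). Symbols alone chose them, and 80 of the 54532 rows met the rule, of which 68 had a count in at least 1 library and 41 passed the low-count filter. The tissue was ear skin of Sprague Dawley (SD) rats, with 2 libraries from skin given AAV-Fgf7 (labelled Fgf7 overexpression) and 2 from skin given control virus (labelled wt), all taken on day 3. AAV is adeno-associated virus, a carrier for genes, and Fgf7 encodes fibroblast growth factor 7, a growth factor for keratinocytes. Rats 1 and 2 each gave 1 ear per group. The labels used here name neither the vector's regulatory sequences, nor the dose, nor the animals' age.

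Chaperones bind unfolded protein and help it to fold. Hsp70 proteins work by cycles of ATP hydrolysis that J-domain (DnaJ, Hsp40) partners start, Hsp90 acts later on kinases and receptors, small heat shock proteins hold unfolded clients, and chaperonins enclose them in a ring. Many of these genes are induced by heat shock factor 1 through heat shock elements, and those of the endoplasmic reticulum through a separate stress element. In skin, Hsp27 (Hspb1) is known from differentiating keratinocytes.

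Library totals were 1433247 and 1417294 counts for AAV-Fgf7 skin of rats 1 and 2, and 1299136 and 1601321 for control skin. Fgf7 itself had 454 and 1429 counts in AAV-Fgf7 skin, against 94 and 110 in control skin. All rows carry mouse gene identifiers although the animals were rats, so how much of a rat transcript a count covers may differ between genes. Of markers for the labelled tissue, Krt14, Krt10 and Col1a1 were counted in every library. The fibroblast markers Dcn and Lum had no count in any library. Krt1 had counts of 1 and 1 in AAV-Fgf7 skin and 0 and 1 in control skin. The skeletal muscle gene Acta1 averaged 12440 FPKM, above Col1a1 at 4335 FPKM. In bulk skin, fewer cells of a type and less RNA per cell cannot be told apart. Each group is 1 ear from each of 2 rats, so p-values measure only the spread between these libraries.

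No chaperone gene was called between AAV-Fgf7 and control skin. The edgeR quasi-likelihood test passed 0 of the 41 tested members at an adjusted p under 0.05, where 0 of all 6370 tested genes passed (a background of 0%), and the adjusted p of every tested member was 0.9996. At an unadjusted p under 0.05 there were also 0 members by edgeR, DESeq2 and limma-voom, against an edgeR background of 2.32% of all tested genes (1.71% higher and 0.612% lower in AAV-Fgf7 skin). Adding rat as a replicate block gave 1 such member, Hsp90ab1 (edgeR adjusted p = 1), with no share of all tested genes given for that setting. The median log2 fold change of the tested members, AAV-Fgf7 over control, was 0.11, beside -0.02 for all tested genes. Fgf7 itself, at a log2 fold change of 3.18 (SE 0.54), was not called either (edgeR adjusted p = 0.9996). The lack of a call therefore does not show a lack of change. The 39 untested members had too few counts for a comparison.

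The chaperone genes held 0.723% and 0.842% of all counts in the AAV-Fgf7 libraries of rats 1 and 2, against 0.708% and 0.668% in the control libraries. Both shares in AAV-Fgf7 skin lay above both in control skin. The 10 members with most counts made up 74.1% to 76.6% of the chaperone counts of a library, and Hspa8 alone 16.8% to 18.5%. Per length, deposited FPKM (counts scaled by gene length and library total) averaged from 0.852 for Dnajc1 to 302 for Hspa8 among tested members, with a median of 15.3, beside 8.78 for all tested genes.

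**Figure D1:**
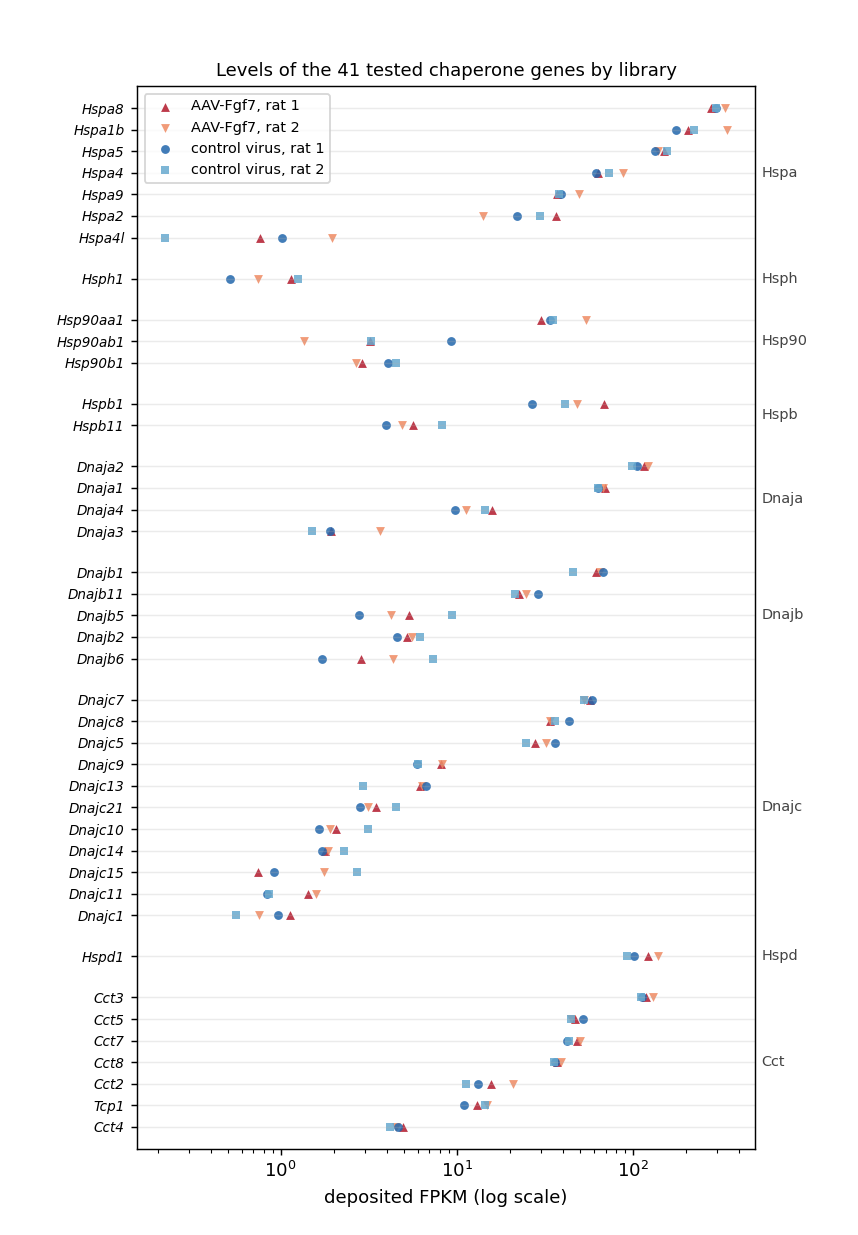
Deposited FPKM of the 41 tested chaperone genes (log axis), 1 symbol per library, with red triangles for AAV-Fgf7 skin and blue circles and squares for control skin, grouped by family. Hspa8 averaged 302 FPKM and Dnajc1 0.852, and for most genes the 4 libraries lie close together beside the range between genes.

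Both AAV-Fgf7 libraries lay above both controls for 11 of the 41 tested members (26.8%), beside a background of 14.8% of all tested genes. They lay below both controls for 3 (7.32%), beside 13.3%. The 11 were Cct2, Cct3, Cct7, Cct8, Hspd1, Dnaja1, Dnaja2, Dnaja3, Dnajc9, Dnajc11 and Hspb1, and the 3 were Hsp90ab1, Hsp90b1 and Dnajc8. Without the control library of rat 2 the counts were 24 above and 9 below, and without that of rat 1 they were 19 and 13. Without the AAV-Fgf7 library of rat 1 they were 18 and 5, and without that of rat 2 they were 15 and 7. Leaving out a library can only raise such counts. The background shares above do not apply to them, and none over all tested genes were computed. Within animals, the AAV-Fgf7 ear was higher in both rats for 16 members (39.0%, beside 21.0% of all tested genes with counts in every library) and lower in both for 5 (12.2%, beside 19.9%). Members are not independent, and these shares were not tested.

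**Figure D2:**
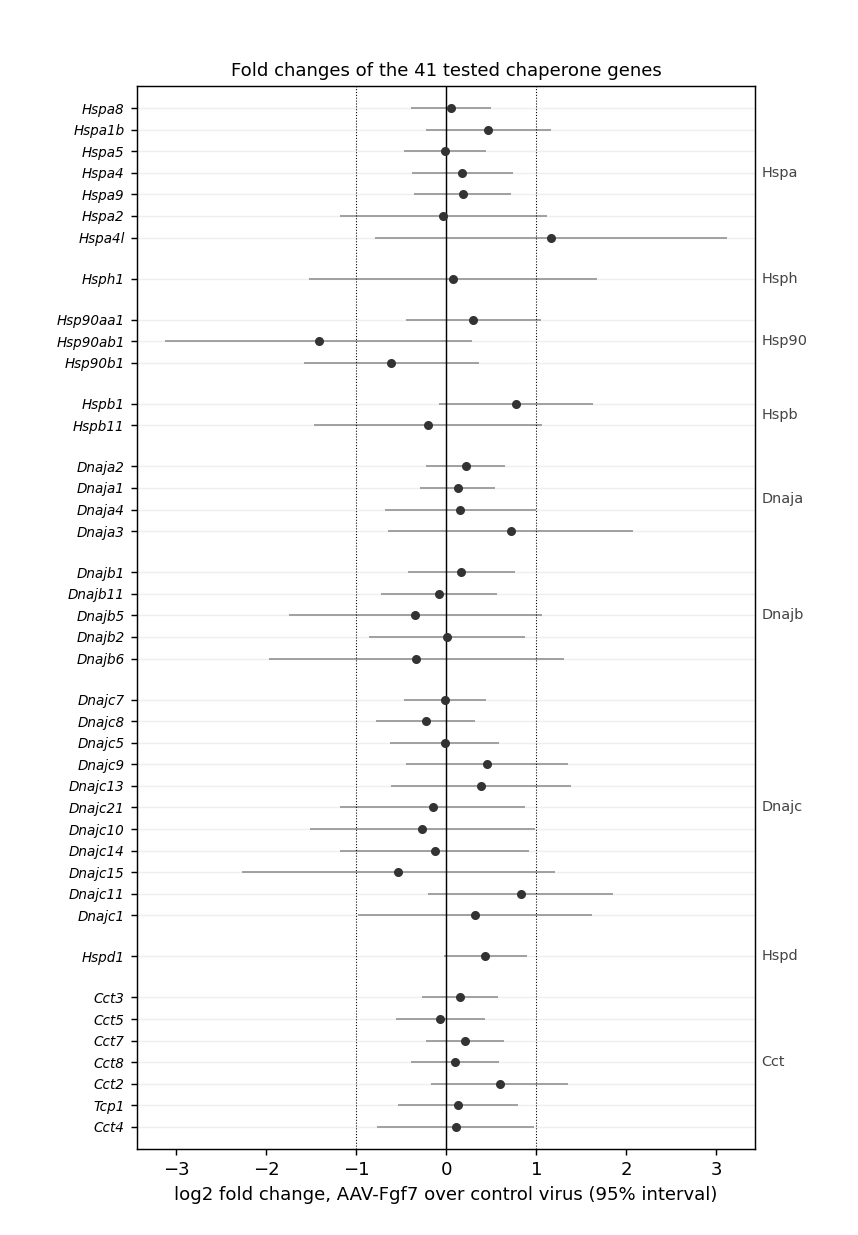
Log2 fold change of each tested chaperone gene, AAV-Fgf7 over control virus, with its 95% interval from edgeR; dotted lines mark a 2-fold difference either way. Every interval includes 0, and those of 20 of the 41 genes lie between the dotted lines.

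By deposited FPKM under the mouse gene models, the cytosolic Hsp70 genes Hspa8 and Hspa1b ranked highest among the members. These levels need not be those of the rat transcripts. Hspa8 encodes the constitutive Hsp70 (Hsc70), and its counts were 1742 and 2112 in AAV-Fgf7 skin of rats 1 and 2, against 1699 and 1961 in control skin. It averaged 1346 ± 164 CPM (counts brought to an equal library size, with TMM factors) in AAV-Fgf7 skin and 1298 ± 10.7 CPM in control skin (SD, n = 2 each). The groups overlapped, and the log2 fold change was 0.05 with a 95% interval of -0.39 to 0.50, which leaves out a 2-fold difference. Its level stood at the 97.0th percentile of tested genes by FPKM.

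Hspa1b, the stress-inducible Hsp70, ranked next to Hspa8 among the members by FPKM, while Cct3 had more counts. Its counts were 840 and 1414 in AAV-Fgf7 skin, against 663 and 953 in control skin, and its level 786 ± 273 CPM against 569 ± 92.6 CPM. The AAV-Fgf7 library of rat 2 was above the other 3, and that of rat 1 lay between the controls. The log2 fold change was 0.47 (SE 0.28; 95% interval -0.23 to 1.16) and an edgeR adjusted p of 0.9996. Leaving out 1 library gave 0.06 (without AAV-Fgf7, rat 2) to 0.79 (without AAV-Fgf7, rat 1). The neighbouring copy Hspa1a had counts of 1 and 3 in AAV-Fgf7 skin and 1 and 2 in control skin. The copies are nearly identical in sequence, so how reads were split between them is uncertain. Hspa1l and Hspa14 had no count in any library.

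Other Hsp70 members differed in steadiness. Hspa4, an exchange factor of the Hsp110 group, had counts of 511 and 719 in AAV-Fgf7 skin and 459 and 618 in control skin (log2 fold change 0.18, SE 0.23). Its relative Hspa4l was rare and uneven, with counts of 13 and 34 in AAV-Fgf7 skin, against 16 and 4 in control skin, and a log2 fold change of 1.16 (SE 0.80, edgeR adjusted p = 0.9996). The rat 2 libraries held its highest and lowest values and the rat 1 libraries lay between them. Leaving out 1 library gave 0.33 (without AAV-Fgf7, rat 2) to 2.58 (without control, rat 1). Hsph1, which encodes the Hsp110 protein Hsp105, had counts of 12 and 8 in AAV-Fgf7 skin and 5 and 14 in control skin, so the groups overlapped.

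Hspa2, an Hsp70 best known from the testis, was counted 140 and 55 times in AAV-Fgf7 skin, against 78 and 121 times in control skin. The 2 AAV-Fgf7 libraries were its extremes, at 98.9 and 38.1 CPM. Its log2 fold change was -0.03 (SE 0.47), and 0.01 with library totals only. All 6 markers of testis germ cells were at 0. The hair follicle markers (11 of 14 with a count) summed to 4687 and 249.9 CPM in AAV-Fgf7 skin and 71.4 and 1520 CPM in control skin. The AAV-Fgf7 library of rat 1 was highest and the control library of rat 2 next for both, while their lower ends did not match, and the part of follicle content in Hspa2 was not tested.

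Heat shock elements were looked for in the 250 bases before the start of each gene in RefSeq (rat assembly GRCr8), which held 65 of the 80 members. The motif was 3 alternating units of the site that heat shock factors bind, GAA, TTC and GAA with NN between units, on either strand. It was present for 4 members (6.15%), Hspa8, Hsph1, Hspd1 and Hspe1, beside 0.500% of 18999 promoters of protein-coding genes. The shorter GAANNTTC, which the longer motif contains, was present for 13 members (20%), beside 7.10%. The other order of 2 units, TTCNNGAA, was present for 8 members (12.3%), beside 7.23%. Of general promoter motifs also searched, CCAAT was present for 40% of members beside 36.9%, and TATAAA for 9.23% beside 13.2%. Hspa1b and Hsp90aa1 had no entry. The windows of Hspa8 (chr8:50080281-50080491, plus strand) and Hsph1 (chr12:10427312-10427364, plus strand) are shown with the 3-unit matches in capitals, because the pair carries the element at the highest and nearly the lowest level among tested members.
Hspa8: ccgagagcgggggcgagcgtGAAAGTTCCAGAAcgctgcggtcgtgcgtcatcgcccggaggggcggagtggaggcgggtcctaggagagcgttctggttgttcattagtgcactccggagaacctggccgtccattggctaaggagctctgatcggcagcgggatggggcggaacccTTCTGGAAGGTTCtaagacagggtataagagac
Hsph1: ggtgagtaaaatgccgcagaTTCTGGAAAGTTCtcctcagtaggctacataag
Hspa8 averaged 302 FPKM and Hsph1 0.916, so genes with the element were counted at levels far apart under the mouse gene models. A match in letters is not a measured binding site.

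Cytosolic Hsp90 genes were uneven. Hsp90aa1, the inducible Hsp90 alpha, had counts of 171 and 315 in AAV-Fgf7 skin and 177 and 211 in control skin. As for Hspa1b, the AAV-Fgf7 library of rat 2 was the high one, and the log2 fold change was 0.30 (95% interval -0.45 to 1.05). Without that library it was -0.19. Hsp90ab1, the constitutive Hsp90 beta, had counts of 14 and 6 in AAV-Fgf7 skin, against 37 and 15 in control skin.

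Hsp90ab1 had the largest negative log2 fold change of the tested members, at -1.42 (SE 0.70; 95% interval -3.12 to 0.28; edgeR adjusted p = 0.9996). Both AAV-Fgf7 libraries were below both controls, by a small margin between the AAV-Fgf7 library of rat 1 (9.89 CPM) and the control of rat 2 (9.98 CPM). Leaving out 1 library gave -2.16 to -0.51. Scaled by library totals only, members below both controls numbered 1 in place of 3. The within-rat ratio was 0.352 in rat 1 and 0.416 in rat 2. Its counts were few, and it averaged 4.27 FPKM beside 38.3 FPKM for Hsp90aa1. Hsp90 beta is known as an abundant transcript of most tissues, and how completely its rat reads were counted under the mouse gene model was not tested.

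Chaperones of the endoplasmic reticulum did not move as 1 block. Hspa5 encodes BiP, the Hsp70 of that compartment, and had counts of 917 and 863 in AAV-Fgf7 skin, against 760 and 1017 in control skin. The groups overlapped, and the log2 fold change was -0.01 (95% interval -0.47 to 0.44), or 0.03 with library totals only. Hsp90b1, the reticulum's Hsp90 (GRP94), had counts of 17 and 16 in AAV-Fgf7 skin and 22 and 28 in control skin. Both AAV-Fgf7 libraries stood below both controls (log2 fold change -0.61, SE 0.40, edgeR adjusted p = 0.9996).

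Only some J-domain partners of BiP are described here, and those tested were not called. Dnajb11 (ERdj3) had counts of 106 and 118 in AAV-Fgf7 skin and 126 and 106 in control skin (log2 fold change -0.08, SE 0.26). Dnajc3 (p58IPK) had counts of 8 and 10 against 5 and 5 in control skin, and was not tested. Dnajc10 (ERdj5) stood at -0.27 (SE 0.51). Among 16 tested genes of a list of other endoplasmic reticulum stress genes, 0 passed the test, 1 had both AAV-Fgf7 libraries above both controls and 4 had them below, beside 14.8% and 13.3% of all tested genes. The median log2 fold change was -0.02. Herpud1, a stress-induced degradation factor, stood at -0.45 (SE 0.25), the transcription factor gene Atf4 at -0.27 (SE 0.18) and Sil1, the exchange factor of BiP, at 0.84 (SE 0.43).

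The endoplasmic reticulum stress element, CCAAT and CCACG with NNNNNNNNN between them, searched on both strands in the same 250 bases, was present for 3 of 65 members (4.62%), beside 0.0947% of promoters. These were Hspa5 (chr3:38452953-38453011, plus strand), Hsp90b1 (chr7:23012327-23012489, minus strand) and Dnajc3 (chr15:102432514-102432572, plus strand). They are shown, with matches in capitals, because the 3 share the element at unlike FPKM. Under the mouse gene models Hspa5 averaged 145 FPKM, Hsp90b1 3.56 and Dnajc3 0.94. How completely the rat reads of each were counted was not tested.
Hspa5: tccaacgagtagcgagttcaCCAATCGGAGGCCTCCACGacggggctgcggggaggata
Hsp90b1: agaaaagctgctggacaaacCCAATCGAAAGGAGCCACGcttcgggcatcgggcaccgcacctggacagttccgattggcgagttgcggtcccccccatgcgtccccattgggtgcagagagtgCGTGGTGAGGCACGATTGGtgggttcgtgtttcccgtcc
Dnajc3: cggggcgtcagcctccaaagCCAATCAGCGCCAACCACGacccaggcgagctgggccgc

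Mitochondrial chaperones were led by Hspd1. Hspd1 encodes Hsp60, which folds proteins imported into mitochondria, and had the lowest p of the tested members. Its counts were 466 and 539 in AAV-Fgf7 skin, against 357 and 373 in control skin, and its level was 351 ± 31.2 CPM against 260 ± 16.1 CPM (SD, n = 2 each). Both AAV-Fgf7 libraries lay above both controls, at 1.21 times the control in rat 1 and 1.5 times in rat 2. The log2 fold change was 0.44 (SE 0.19; 95% interval -0.03 to 0.90), with an unadjusted edgeR p of 0.0613 and an adjusted p of 0.9996.

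A row listed as a processed pseudogene, Hspd1-ps3, held counts of 258 and 377 in AAV-Fgf7 skin and 207 and 370 in control skin. Its groups overlapped, with both rat 2 libraries high (log2 fold change 0.13, SE 0.30). With its counts added to those of Hspd1 the sums were 724 and 916 in AAV-Fgf7 skin, against 564 and 743 in control skin. The groups still did not overlap, and the log2 fold change was 0.31 (SE 0.20, edgeR adjusted p = 0.9997). This sum was chosen after the values were seen.

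Hspe1, the Hsp10 lid of the same chaperonin, was counted 7 and 1 times in AAV-Fgf7 skin and 1 and 0 times in control skin, too few to test. In the deposited table Hspd1 and Hspe1 overlap at their starts on opposite strands (mouse chromosome 1, 55077835 to 55088243 and 55088132 to 55091307, build not given), so reads there cannot be told apart without strand. In the rat the genes also lie head to head, and the 3-unit heat shock matches of both are the same bases read from either strand. The windows are Hspd1 (chr9:64084242-64084287, minus strand) and Hspe1 (chr9:64084242-64084299, plus strand), with the overlapping matches in capitals.
Hspd1: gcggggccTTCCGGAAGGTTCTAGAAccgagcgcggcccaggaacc
Hspe1: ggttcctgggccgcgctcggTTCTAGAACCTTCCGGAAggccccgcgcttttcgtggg
Although they share these bases, Hspd1 averaged 113 FPKM and Hspe1 1.06 FPKM under the mouse gene models.

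Hspa9, the mitochondrial Hsp70 (mortalin), had counts of 212 and 288 in AAV-Fgf7 skin and 206 and 228 in control skin, and its groups overlapped (log2 fold change 0.18, SE 0.22). Dnaja3 (Tid1), its J-domain partner, had counts of 11 and 21 against 10 and 9 (log2 fold change 0.71, SE 0.56). Dnajc11, a J-domain protein of the mitochondrial inner membrane organising system, had counts of 22 and 25 in AAV-Fgf7 skin and 12 and 14 in control skin. Both its AAV-Fgf7 libraries were above both controls, with a log2 fold change of 0.83 (SE 0.42; edgeR adjusted p = 0.9996). Dnajc15, of the import motor, went the other way in sign at -0.53 (SE 0.71), with counts of 7 and 17 against 8 and 27.

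In a list of other mitochondrial import and quality-control genes, 12 were tested, 0 passed, 4 had both AAV-Fgf7 libraries above both controls and 1 had them below (median log2 fold change 0.08), beside 14.8% above and 13.3% below among all tested genes. Htra2, a protease of the intermembrane space, stood at 0.78 (SE 0.47), the disaggregase gene Clpb at 0.41 (SE 0.31) and the import receptor gene Tomm70a at 0.25 (SE 0.19).

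The cytosolic chaperonin (CCT or TRiC) is a double ring of 8 kinds of subunit that folds actin and tubulin. Of its 7 tested subunit genes, 6 had a positive log2 fold change, the range was -0.07 to 0.59, and for 4 the AAV-Fgf7 libraries both lay above the controls. Over all tested genes, 47.8% had a positive log2 fold change and 14.8% lay above both controls. Cct3 had counts of 1092 and 1224 in AAV-Fgf7 skin, against 963 and 1089 in control skin (log2 fold change 0.15; 95% interval -0.27 to 0.58). Cct7 had counts of 475 and 499 against 383 and 449, a log2 fold change of 0.21 (95% interval -0.23 to 0.64). In rats 1 and 2 the AAV-Fgf7 ear stood at 1.05 and 1.17 times the control for Cct3 and at 1.15 and 1.16 times for Cct7.

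Cct2 was the subunit with the widest spread. It was counted 58 and 79 times in AAV-Fgf7 skin and 45 and 44 times in control skin, with levels of 47.8 ± 9.71 CPM and 31.7 ± 3.45 CPM (SD, n = 2 each). Its log2 fold change was 0.59 (SE 0.31; edgeR adjusted p = 0.9996). Cct5 had counts of 188 and 182 in AAV-Fgf7 skin and 192 and 188 in control skin (log2 fold change -0.07, SE 0.20), and its groups overlapped. Cct8 stood at 0.09 (SE 0.20), Tcp1 at 0.13 (SE 0.27) and Cct4 at 0.11 (SE 0.36).

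Subunits that share a complex were listed at unequal levels. Cct3 had 118 and 130.5 FPKM in AAV-Fgf7 skin and 113 and 112 FPKM in control skin, while Cct4 had 4.93 and 4.53 FPKM, against 4.63 and 4.20 FPKM. The ratio of Cct3 to Cct4 was 24 and 28.8 in AAV-Fgf7 libraries and 24.4 and 26.6 in control libraries. The groups overlapped. The remaining subunit, Cct6a, is listed as a processed transcript and so fell outside the rule. It was counted 97 and 90 times in AAV-Fgf7 skin and 68 and 77 times in control skin (log2 fold change 0.35, SE 0.26). Cct6b, its testis form, had no count. A pseudogene row, Cct3-ps1, added 46 and 65 counts in AAV-Fgf7 skin and 31 and 52 in control skin.

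**Figure D3:**
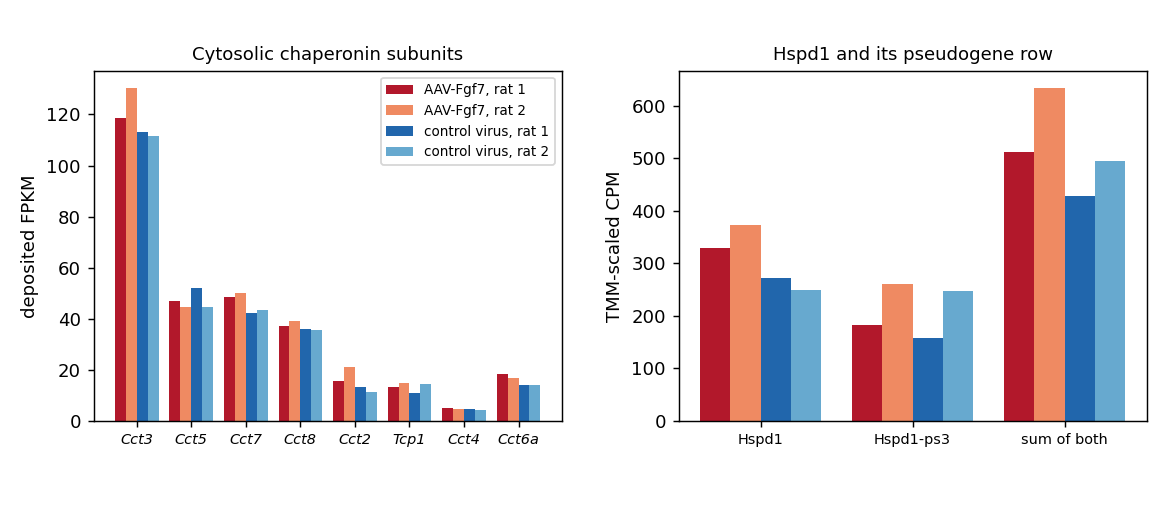
Left, deposited FPKM of the cytosolic chaperonin subunits in each library; right, TMM-scaled CPM of Hspd1, its pseudogene row and their sum (red, AAV-Fgf7 skin; blue, control skin). Cct3 averaged 118 FPKM and Cct4 4.57, and Hspd1 was higher in both AAV-Fgf7 libraries while the pseudogene row followed the rat 2 libraries.

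Among clients of the chaperonin and its helper prefoldin, 9 other genes were tested, 0 passed, and for 3 the AAV-Fgf7 libraries both lay above the controls, beside 14.8% of all tested genes (median log2 fold change 0.16). The tubulin gene Tubb4b had counts of 1741 and 2200 in AAV-Fgf7 skin, against 1313 and 1560 in control skin, a log2 fold change of 0.44 (SE 0.19; edgeR adjusted p = 0.9996). The prefoldin gene Pfdn1 stood at 0.46 (SE 0.40). Tubb5 stood at 0.60 (SE 0.53), with counts of 35 and 102 against 47 and 41, so that only the AAV-Fgf7 library of rat 2 was high.

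DnaJ proteins of the cytosolic A class hand clients to Hsp70. The highest library was 1.11 times the lowest for Dnaja1, 1.22 times for Dnaja2 and 1.62 times for Dnaja4. Dnaja1 had counts of 874 and 860 in AAV-Fgf7 skin and 734 and 833 in control skin, with a log2 fold change of 0.13 (95% interval -0.30 to 0.55). Dnaja2 had counts of 497 and 533 against 420 and 453, with a log2 fold change of 0.21 (95% interval -0.22 to 0.65). For both genes the groups did not overlap, and the intervals leave out a 2-fold difference. Dnaja4 had counts of 82 and 60 in AAV-Fgf7 skin and 47 and 80 in control skin, and was higher in the AAV-Fgf7 ear of rat 1 and lower in that of rat 2.

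Dnajb1, the inducible Hsp40, had counts of 285 and 308 in AAV-Fgf7 skin and 289 and 225 in control skin (log2 fold change 0.17, SE 0.24). Only the control library of rat 2 stood low. Dnajb5 and Dnajb6, which encode relatives of Hsp40, were the uneven members of the B class. Dnajb5 was counted 46 and 37 times in AAV-Fgf7 skin and 22 and 85 times in control skin. Dnajb6, known for a muscular dystrophy of the limb girdle and as a suppressor of aggregation, was counted 25 and 39 times in AAV-Fgf7 skin and 14 and 68 times in control skin. In both genes the 2 control libraries were the extremes. Without the control of rat 1 their log2 fold changes were -0.96 and -1.02, and without that of rat 2 they were 0.80 and 1.07.

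Summed markers of skeletal muscle, cartilage and adipocytes had the same extremes as these DnaJ genes. Single markers did not all share the low extreme. The lowest library was the control of rat 1 for some, such as Acta1, Acan and Lpl. For others, such as Tnni2, Sox9 and Plin1, it was the AAV-Fgf7 library of rat 2. The muscle list (19 of 20 with a count) summed to 34460 and 17110 CPM in AAV-Fgf7 skin and 15920 and 66270 CPM in control skin, so its extremes were the same 2 control libraries. Cartilage markers (10 of 10 with a count) summed to 1099 and 648 CPM in AAV-Fgf7 skin and 591 and 2145 CPM in control skin. Adipocyte markers (3 of 5 with a count) summed to 103 and 60.9 CPM in AAV-Fgf7 skin and 57.7 and 214 CPM in control skin. Between the AAV-Fgf7 libraries all 3 sums and Dnajb5 were higher in rat 1, while Dnajb6 was higher in rat 2. The part of these tissues in Dnajb5 and Dnajb6 was not tested. Small heat shock genes known from muscle were mostly too rare to test. Hspb3 had counts of 5 and 0 in AAV-Fgf7 skin and 7 and 12 in control skin. Hspb6 had 3 and 2 against 6 and 7, and Hspb7 2 and 2 against 3 and 7. Hspb2, also untested, had 2 and 5 against 0 and 8, and its groups overlapped. The 6 untested Hspb genes together had counts of 12 and 9 in AAV-Fgf7 skin and 16 and 35 in control skin. This sum was highest in the control of rat 2 but lowest in the AAV-Fgf7 library of rat 2, unlike the muscle sum.

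Of the 2 tested small heat shock genes, Hspb1 had the higher counts. It encodes Hsp27, and was counted 102 and 73 times in AAV-Fgf7 skin, against 37 and 65 times in control skin. Its levels were 61.3 ± 15.2 CPM in AAV-Fgf7 skin and 35.7 ± 10.7 CPM in control skin (SD, n = 2 each). Both AAV-Fgf7 libraries were above both controls, at 2.56 times the control in rat 1 and 1.17 times in rat 2. The log2 fold change was 0.78 (SE 0.35; 95% interval -0.08 to 1.64), with an unadjusted edgeR p of 0.0697 and an adjusted p of 0.9996. Leaving out 1 library gave 0.50 (without control, rat 1) to 1.12 (without control, rat 2). Hspb11, a part of the ciliary transport complex, overlapped between groups at -0.21 (SE 0.52).

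Basal keratinocyte markers (8 of 8 with a count) summed to 1914 and 3677 CPM in AAV-Fgf7 skin and 1244 and 1151 CPM in control skin. Both AAV-Fgf7 libraries were above both controls for this sum, as for Hspb1 and Hspd1. The same held for 4 of its 7 tested markers, beside 14.8% of all tested genes, while Krt15, Itga6 and Itgb4 overlapped between groups. Suprabasal keratinocyte markers (6 of 6 with a count) summed to 1475 and 3476 CPM in AAV-Fgf7 skin and 1371 and 1049 CPM in control skin. Between the AAV-Fgf7 libraries, Hspd1, Hspa1b and Hsp90aa1 were higher in rat 2, as were both marker sums, while Hspb1 was higher in rat 1. Between the controls, Hspa1b, Hsp90aa1 and Hspb1 were higher in rat 2, while Hspd1 and both marker sums were higher in rat 1. Hsp90aa1 was lowest in the AAV-Fgf7 library of rat 1. The AAV-Fgf7 library of rat 2 was highest for 16 of the 41 tested members, beside 25.1% of all tested genes. The part of keratinocyte content in these values was not tested.

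**Figure D4:**
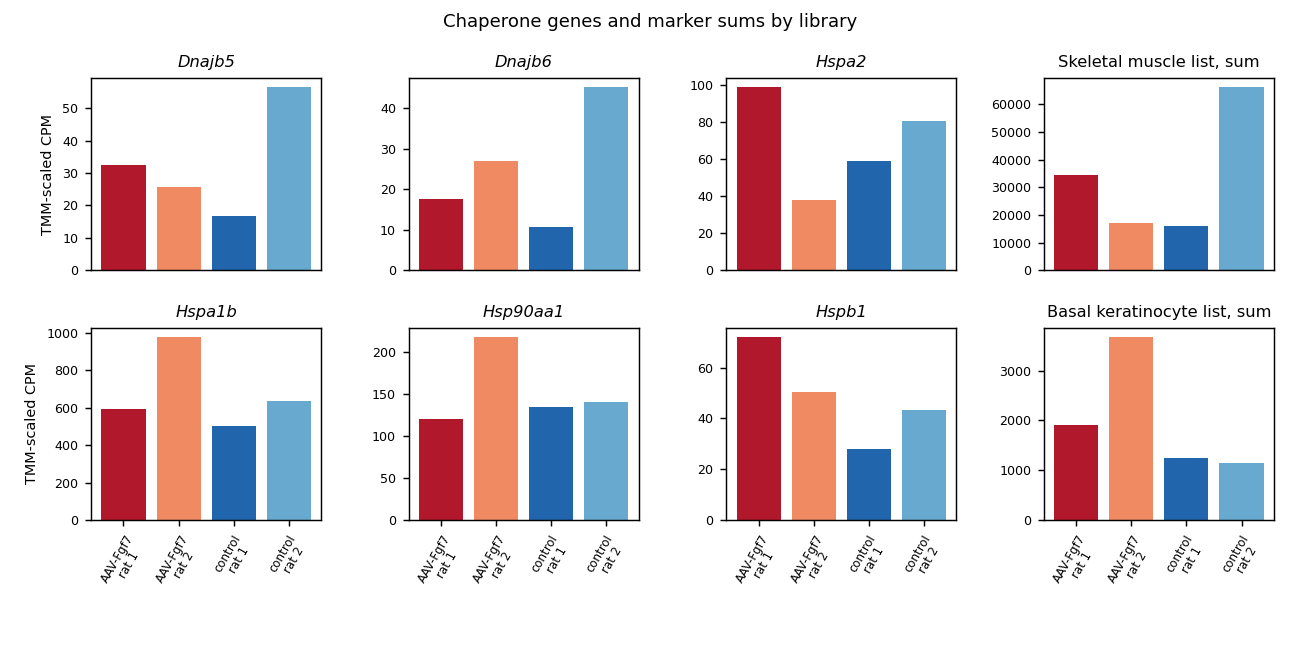
TMM-scaled CPM in each library for 6 chaperone genes and for the summed skeletal muscle and basal keratinocyte markers (red, AAV-Fgf7 skin; blue, control skin; each panel has its own linear axis from 0). Dnajb5, Dnajb6 and the muscle sum are highest in the control library of rat 2 and lowest in that of rat 1. The keratinocyte sum, Hspa1b and Hsp90aa1 are highest in the AAV-Fgf7 library of rat 2, but each is lowest in a different library.

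C-class DnaJ proteins share the J domain alone and serve many places in the cell. Dnajc7, a co-chaperone between Hsp70 and Hsp90, had counts of 402 and 376 in AAV-Fgf7 skin and 379 and 393 in control skin (log2 fold change -0.01; 95% interval -0.47 to 0.45), or 0.02 with library totals only. Dnajc5, the synaptic vesicle protein CSP alpha, had counts of 279 and 327 against 336 and 262, and a log2 fold change of -0.02 (SE 0.25) whose sign changed under several alternatives. Dnajc8, of the spliceosome, had counts of 125 and 127 in AAV-Fgf7 skin and 148 and 142 in control skin (log2 fold change -0.23, SE 0.23). Its AAV-Fgf7 libraries were both below both controls.

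Dnajc9, a histone chaperone, had counts of 28 and 29 in AAV-Fgf7 skin and 19 and 22 in control skin, at 1.37 times the control in each rat (log2 fold change 0.45, SE 0.37). Dnajc13, an endosomal J-domain protein, had counts of 107 and 112 against 107 and 54, so only the control of rat 2 was low. Its log2 fold change was 0.39 (SE 0.41), 1.09 without the control of rat 1 and -0.08 without that of rat 2. Dnajc2, the ribosome-bound zuotin, was not tested and had counts of 2 and 3 in AAV-Fgf7 skin and 20 and 0 in control skin, the 20 being in rat 1. Median log2 fold changes were -0.61 for the 3 tested Hsp90 genes, -0.02 for the 11 tested Dnajc genes, -0.08 for the 5 Dnajb genes, 0.19 for the 4 Dnaja genes, 0.13 for the 7 chaperonin subunits and 0.18 for the 7 Hspa genes.

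Co-chaperones outside these families were not called either. Of 14 tested partners of Hsp70 and Hsp90, 0 passed, 11 had a positive log2 fold change and for 5 the AAV-Fgf7 libraries both lay above the controls (median 0.14), beside 47.8% positive and 14.8% above both controls among all tested genes. Unc45a, a myosin chaperone, stood at 0.44 (SE 0.28), the Hsp90 activator gene Ahsa1 at 0.34 (SE 0.28) and the immunophilin gene Fkbp4 at 0.34 (SE 0.27). Of 6 tested heat shock factors and regulators, 0 passed and 1 was below both controls, beside 13.3% of all tested genes. This was Hsf2, at -0.58 (SE 0.39), while Hsf1, the main factor of the heat response, stood at 0.13 (SE 0.27).

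Spread between libraries was compared with that of all tested genes. Over all 41 tested members the highest library was at least 2 times the lowest for 12, beside a background of 33%. Among the 18 members with a mean count of at least 100, a limit chosen after the values were seen, 0 had a highest library at 2 times the lowest or more, beside 12.8% of the 2217 tested genes above the same limit. This 0 rests on the limit, since Hspa2 and Dnajc13 lay just under it with highest libraries at 2.60 and 2.26 times the lowest. The 95% interval of the fold change lay within 2-fold either way for 16 of these 18 members, beside 80.4% of those genes. Over all 41 tested members it did so for 20 (48.8%), beside a background of 39.5%. The intervals of Hspa1b and Hsp90aa1 were the 2 exceptions among the 18, reaching 1.16 and 1.05.

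The 39 untested members included 12 with no count in any library. These were Hspa14, Hspa1l, Hspb9, Cct6b, Dnajb7, Dnajb8, Dnajb13, Dnajc4, Dnajc5b, Dnajc5g, Dnajc12 and Dnajc28, several of which are known from the testis. A count of 0 allows a level of up to 2.09 and 2.12 CPM in the AAV-Fgf7 libraries and 2.31 and 1.87 CPM in the control libraries (3 counts per library, counting error only). The other 27 had from 1 to 32 counts over the 4 libraries together. Dnajc19, of the mitochondrial import motor, had 2 and 1 counts in AAV-Fgf7 skin and 0 and 0 in control skin, while the row Dnajc19-ps, listed as its pseudogene, had 43 and 36 against 15 and 38. A lack of counts under a mouse gene model does not show that a rat transcript was absent.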

How the data were processed

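Ear skin RNA of 2 Sprague Dawley rats was sequenced, and each library is 1 ear. The authors deposited raw counts per gene and FPKM for the same genes under mouse identifiers. The labels name no aligner or counter, and the submitters' processing notes name the rat build Rnor_6.0 (rn6). FPKM equalled counts over gene length and a library constant. The label of the AAV-Fgf7 sample of rat 2 names the column of rat 1, so its column was taken by number and title. Ear sides conflict between labels and design text and were not used.

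Counts were filtered with filterByExpr (6370 genes, 98.9% of counts), TMM-scaled (factors 0.948 to 1.03) and tested over all genes with edgeR 4.0.16 in R 4.3.3 (quasi-likelihood, two-sided, Benjamini-Hochberg, threshold 0.05). DESeq2 1.42.0 and limma 3.58.1 were alternatives, with FPKM plus a pseudocount of 1 or 0.1. Intervals are 95% from the same fit, and SE is the absolute log2 fold change over the root of F. The fit was run on simulated data with changes set only in well-counted genes and less spread between libraries than in these data. That run does not show what could be called here. With 2 libraries a group, an exact permutation test cannot give p below 0.33. Titles pair ears by rat; deviations of paired libraries correlated at r = -0.30 over genes.

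Named members were, per family, the 3 of highest FPKM, the 2 of lowest p and the most variable; all other named members were added after their values were seen. From each list of other genes the 3 of lowest p were named, except 1 gene that is not reported here. Members and lists were chosen with earlier results of these data known.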

Additional observations from a re-analysis of the deposited data

How the results depend on the processing

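No tested member passed an adjusted p of 0.05 in any of the 15 alternatives (lowest adjusted p 0.281, for Dnajc13 without the control library of rat 1 in edgeR). Over all genes, edgeR called 0, against 3 without a low-count filter, 4 by DESeq2, and 0 to 19 when 1 library was left out, the 19 without the control of rat 1. Members higher at an unadjusted p under 0.05 numbered 0, against 1 with library totals only (Hspb1) and 0 to 2 when 1 library was left out. Members lower numbered 0, against 1 without a low-count filter and 1 with the replicate block (both Hsp90ab1), and 0 to 2 when 1 library was left out. The block changed no other call. Crossing the rat numbers, an alternative chosen after seeing the data, gave 3 members higher and 0 lower, with 0 genes called. No share of all tested genes at that unadjusted p is given for the alternatives. The counts of members under them are therefore not results about the members.

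The median log2 fold change of members was 0.11 and ran from 0.048 to 0.23 when 1 library was left out. Members with both AAV-Fgf7 libraries above both controls numbered 11, and 15 to 24 when 1 library was left out. Without a filter they were 16, out of the 68 members with a count. Those below numbered 3, 5 to 13 when 1 library was left out and 1 with library totals only. Of the same 68, 8 were below without a filter. Leaving out a library can only raise these counts, and no shares over all tested genes were computed for these alternatives. Neither count was recomputed for DESeq2, limma-voom, the lower pseudocount or either block. Adding pseudogene rows to their genes, also chosen after seeing the data, gave 12 above and 3 below.

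Of 614 log2 fold changes of single members under alternatives, 38 changed sign, in 24 genes, all of them uncalled. With library totals only these were Dnajc7 (0.024), Dnajc5 (0.013), Hspa5 (0.034) and Hspa2 (0.0085). Dnajc5 was 0.0084 by limma-voom, 0.0016 with the replicate block and 0.00037 with crossed numbers. When 1 library was left out the values ran from -0.17 to 0.048 for Cct5, -0.099 to 0.48 for Dnaja4, -0.081 to 0.47 for Dnajb1, -0.29 to 0.15 for Dnajb11, -0.18 to 0.25 for Dnajb2, -0.96 to 0.80 for Dnajb5, -1.02 to 1.07 for Dnajb6, -0.022 to 0.74 for Dnajc1, -0.65 to 0.28 for Dnajc10, -0.084 to 1.09 for Dnajc13, -0.32 to 0.10 for Dnajc14, -1.28 to 0.46 for Dnajc15, -0.45 to 0.24 for Dnajc21, -0.27 to 0.28 for Dnajc5 and -0.079 to 0.057 for Dnajc7. They ran from -0.19 to 0.67 for Hsp90aa1, -0.87 to 0.50 for Hspa2, -0.074 to 0.40 for Hspa4, -0.12 to 0.11 for Hspa5, -0.077 to 0.18 for Hspa8, -0.041 to 0.38 for Hspa9, -0.62 to 0.42 for Hspb11, -0.41 to 0.87 for Hsph1 and -0.057 to 0.35 for Tcp1. The cause was not tested. In such fits the lone library is assumed to vary like the other group. Library totals of 1299136 to 1601321 counts limit what can be seen for the 39 untested members.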
